A study of Mus musculus with 42 samples.

Results

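The genes described here are those of the epidermal growth factor (EGF) receptor family and its ligands, measured in whole mouse lung after 56Fe particle irradiation. The 9 genes were listed by name as Egfr, Erbb2, Erbb3, Areg, Ereg, Btc, Hbegf, Tgfa and Egf, out of 19030 genes named on the array, and their probes were found by symbol, alias or gene identifier. The names chose the genes, and each gene was then read from its probe of highest mean signal over all arrays. Of the 9 genes, 8 had at least 1 named probe, 16 probes in all, and 4 were bright enough to be tested. Areg, the gene of amphiregulin, was not analysed here, because the annotation used names none of the probes after it.

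All 42 mice were of the strain 129S2 K-rasLA1, and the sample descriptions name the G12D mutant of K-ras for each of them, the unirradiated mice included. K-rasLA1 is a latent allele that becomes active by spontaneous recombination in scattered cells, so that lung tumours arise without any further treatment. The fractionated group held 14 mice (7 males and 7 females) given 5 exposures of 0.2 Gy of 56Fe particles, heavy ions of the kind found in cosmic radiation. The acute group held 15 mice (8 males and 7 females) given 1 exposure of 1.0 Gy of the same particles at 1.0 GeV per nucleon, and the control group 13 mice (7 males and 6 females) left unirradiated. The left lung was taken 70 days after irradiation, and 1 Illumina array was run per mouse, on 8 slides of which 7 held all 3 groups. The ages of the mice and their tumour loads are not given in the labels. The number of fractionated mice is 13 in the design text and 14 by the labels of the arrays. The comparisons ask whether lungs still differed in these genes weeks after the exposure, and whether a divided dose acted differently from a single one.

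EGFR, ERBB2 and ERBB3 are receptor tyrosine kinases that signal as pairs. EGFR binds soluble ligands, ERBB2 has no known ligand of its own and acts as a partner, and ERBB3 binds neuregulins and has a weak kinase. The ligands are made as membrane-bound precursors that proteases such as ADAM17 cut free, and the active receptors feed the RAS and ERK pathway in which K-ras itself lies. In lung, EGFR signalling is known for its role in epithelial repair and in adenocarcinoma.

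The tissue label was checked against its markers. All 8 listed genes of alveolar type 2 cells (such as Sftpc and Abca3) and all 8 of alveolar type 1 cells (such as Ager and Aqp5) were detected on every array. Each array detected 16264 to 18289 probes, and 17927 probes were tested across the table. Fractionated replicate 13, a female, stood apart from the other 41 lungs. Its profile correlated with the median profile at 0.866, against 0.962 or more for each of the others, and 27.8% of the probes tested lay below and 23.8% above the range of those 41. Its marker scores, given as the mean log2 deviation of a list from the median of the other lungs, were 4.38 for cell cycle and 2.88 for T and NK cells, but -3.88 for heart muscle, -2.02 for endothelium and -1.44 for alveolar type 1 cells. In the T and NK list the raised genes were Cd3e, Cd3d, Cd3g and Cd2, while Nkg7 was lower, at 5.2 against a median of 7.7. For the 4 tested genes, each read from its brightest probe, and the pathway genes named below, a difference of the fractionated lungs or of the sexes that this lung moved by more than 1.5 times is also given without it.

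Of the 8 genes with a probe, Egfr, Erbb2 and Hbegf were detected on all 42 arrays and Btc on 41, where detection means a detection p under 0.01 in the deposited table. The 1 array without Btc was that of fractionated replicate 13. Egf, the founding ligand, was detected on 6 arrays, 3 of fractionated lungs, 3 of acute lungs and none of the 13 of control lungs. Its signals there were 146, 158 and 167 units in fractionated lungs and 136, 156 and 172 units in acute lungs, while its highest signal in any control lung was 151 units. The probe's highest signals of all were 178 units in acute replicate 11 and 176 units in acute replicate 5. It was not detected in either of these lungs, so detection did not follow the signal alone. That probe was designed on a cDNA clone, and the Egf probe designed on the gene's reference transcript was detected on 0 arrays. Erbb3 was detected in 2 control lungs, at 130 and 169 units, and Tgfa, the gene of transforming growth factor alpha, in 1 control lung at 131 units. Ereg, the gene of epiregulin, was detected on no array with either of its probes. These 4 genes were therefore not well above background in most or all lungs, which is a bound on their signal and not a measurement of absence. When they were fitted without the filter on dim probes, limma called none of them in any comparison, and Egf lay at 0.16 ± 0.11 (log2 difference ± standard error) in fractionated against control lungs (adjusted p = 0.949).

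**Figure D1:**
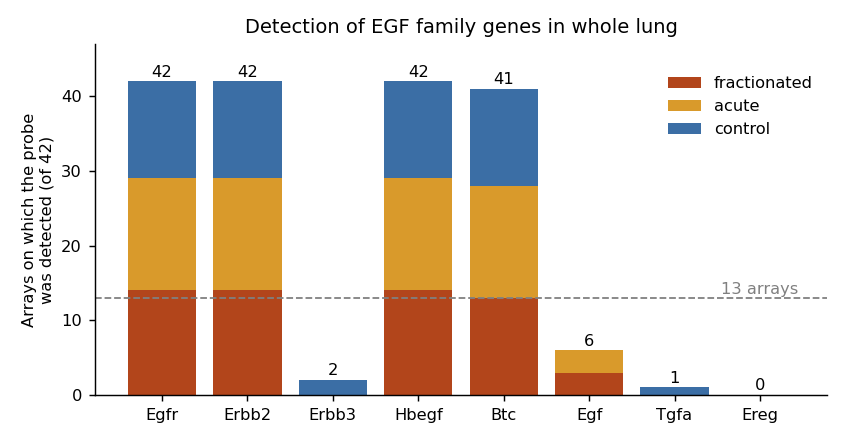
Number of arrays, of 42, on which the brightest probe of each EGF family gene was detected, stacked by group (fractionated, acute, control). Egfr, Erbb2, Hbegf and Btc stand at 41 or 42 arrays, above the dashed line of 13 arrays needed for testing, while Egf stands at 6, Erbb3 at 2, Tgfa at 1 and Ereg at 0.

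The genes lie on several chromosomes. Egfr and Erbb2 are both on chromosome 11, Erbb3 is on 10, Tgfa on 6, Egf on 3 and Hbegf on 18. On chromosome 5 the ligand genes Epgn, Ereg, Areg and Btc follow each other, with no other protein-coding gene between them in the RefSeq table, and of the 3 measured genes of this run Btc was detected on 41 arrays, Epgn on 17 and Ereg on 0. The 250 bases before the RefSeq start site are shown for the tested genes with an entry, because Egfr on one side and Erbb2 and Btc on the other varied with different cell type markers in the lungs. Coordinates are of GRCm38.p6 (Egfr chr11:16751953-16752202, plus strand, Erbb2 chr11:98412234-98412483, plus strand, Btc chr5:91402995-91403244, minus strand), each sequence reads 5′ to 3′ towards the start site, and capitals mark a GC box or a CCAAT box.
Egfr: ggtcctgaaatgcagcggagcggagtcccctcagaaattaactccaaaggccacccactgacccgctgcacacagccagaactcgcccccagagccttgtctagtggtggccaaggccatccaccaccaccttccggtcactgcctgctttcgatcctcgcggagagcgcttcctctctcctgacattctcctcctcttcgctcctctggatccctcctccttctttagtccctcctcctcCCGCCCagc
Erbb2: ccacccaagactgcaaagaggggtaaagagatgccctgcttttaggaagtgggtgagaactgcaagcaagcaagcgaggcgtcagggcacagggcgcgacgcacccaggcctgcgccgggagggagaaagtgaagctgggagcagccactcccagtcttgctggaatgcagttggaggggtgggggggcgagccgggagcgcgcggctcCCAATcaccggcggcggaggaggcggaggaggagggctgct
Btc: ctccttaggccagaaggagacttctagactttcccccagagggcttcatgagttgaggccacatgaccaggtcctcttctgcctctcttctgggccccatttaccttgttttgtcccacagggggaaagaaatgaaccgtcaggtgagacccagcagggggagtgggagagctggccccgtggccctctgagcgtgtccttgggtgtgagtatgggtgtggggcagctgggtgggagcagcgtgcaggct

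Motifs were searched on both strands of these windows. Of 32851 RefSeq windows of the same length 32.7% held the GC box (GGGCGG), 33.8% the CCAAT box, 12.4% a TATA box (TATAAA), 1.55% a cyclic AMP response element (TGACGTCA), 6.75% an AP-1 site (TGANTCA) and 11.6% the core bound by the lung factor NKX2-1 (CAAGTG). The Egfr window held 1 GC box, on the minus strand, that starts 9 bases upstream of the start site. The Erbb2 window held 1 CCAAT box, on the plus strand, 41 bases upstream. The Btc window held none of these letter strings. These matches describe the letters in the windows and no more.

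None of the tested genes differed between the irradiated groups and the controls, or between the irradiated groups, beyond the spread between mice. Signals are given as background-corrected, quantile-normalized log2 values, and a gene is called at an adjusted p under 0.05 in limma with sex as a term. Fractionated against control called 0 of the 4 genes, where 0% of the 17927 probes were called and 4.37% had a raw (unadjusted) p below 0.05. Acute against control also called 0 of 4, where 0% of all probes were called and 1.41% had a raw p below 0.05. Fractionated against acute called 0 of 4, where 0% of all probes were called and 2.08% had a raw p below 0.05. The 95% intervals of the differences bound what these lungs could hide, and the bound farthest from 0 was -0.65 on the log2 scale, for Btc.

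Egfr, the receptor of the EGF-like ligands, had log2 signals of 7.40, 8.76 and 9.18 (lowest, median and highest) in fractionated lungs, 7.50, 8.66 and 9.13 in acute lungs and 7.95, 8.53 and 9.28 in control lungs. The groups overlapped over nearly the whole range, and both irradiated groups held lungs below the lowest control. The difference was 0.04 ± 0.17 between fractionated and control lungs (95% interval -0.31 to 0.38, adjusted p = 0.987 in limma). It was 0.00 ± 0.17 between acute and control lungs (-0.34 to 0.34, adjusted p = 1.00) and 0.04 ± 0.17 between fractionated and acute lungs (-0.30 to 0.37, adjusted p = 1.00). Without replicate 13 fractionated lungs differed by 0.11 ± 0.16 both from control and from acute lungs. Of the 6 Egfr probes 4 were tested, and the other 3 of these had differences of 0.03, -0.25 and -0.13 between fractionated and control lungs, with no call. The probes at -0.25 and -0.13 were designed on another reference transcript of Egfr than the brightest probe. As deviations left after slide, sex and group were accounted for, the tested Egfr probes varied together over the 41 lungs other than replicate 13, with pairwise correlations from 0.539 to 0.911, and the pair of highest signal had the closest match.

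Erbb2, the partner receptor, had signals of 7.28, 8.61 and 8.91 (lowest, median and highest) in fractionated lungs, 8.29, 8.57 and 8.89 in acute lungs and 8.32, 8.51 and 8.90 in control lungs. Apart from replicate 13, whose value was the lowest, the lowest fractionated lung had 8.15, and the 3 groups then covered almost the same range. The difference was -0.07 ± 0.11 between fractionated and control lungs (-0.29 to 0.15, adjusted p = 0.951 in limma), and 0.02 without replicate 13. It was 0.01 ± 0.11 between acute and control lungs (-0.21 to 0.22). Between fractionated and acute lungs it was -0.08 ± 0.10 (-0.29 to 0.13), and 0.02 without that lung.

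Btc, the gene of betacellulin, a ligand of EGFR and ERBB4, had signals of 5.63, 7.29 and 8.02 (lowest, median and highest) in fractionated lungs, 6.61, 7.35 and 8.41 in acute lungs and 6.63, 7.45 and 7.99 in control lungs. Several fractionated lungs lay below the lowest acute and control lungs, and the medians lay close together. The difference was -0.28 ± 0.19 between fractionated and control lungs (-0.65 to 0.10, adjusted p = 0.934 in limma), and -0.17 without replicate 13. Between acute and control lungs it was 0.01 ± 0.18 (-0.36 to 0.38), and between fractionated and acute lungs -0.29 ± 0.18 (-0.65 to 0.08), and -0.18 without that lung. Within slides and without replicate 13, Btc was lower in fractionated than in acute lungs on 6 of 7 slides (-0.58 to 0.39), but higher in fractionated than in control lungs on 4 and lower on 3 (-1.34 to 0.64).

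Hbegf, the gene of heparin-binding EGF-like growth factor, had signals of 8.50, 9.76 and 10.21 (lowest, median and highest) in fractionated lungs, 9.31, 9.68 and 10.08 in acute lungs and 9.26, 9.45 and 10.18 in control lungs. The median of each irradiated group lay above that of the controls, and all 3 groups overlapped. The difference was 0.07 ± 0.11 between fractionated and control lungs (-0.15 to 0.29, adjusted p = 0.955 in limma), and 0.15 without replicate 13. Between acute and control lungs it was 0.16 ± 0.11 (-0.06 to 0.38, adjusted p = 1.00), and between fractionated and acute lungs -0.09 ± 0.11 (-0.31 to 0.12), and -0.01 without that lung. Within slides and without replicate 13, Hbegf was higher in fractionated than in control lungs on 5 of 7 slides (-0.14 to 0.46) and higher in acute than in control lungs on 4 of 7 (-0.11 to 0.43).

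**Figure D2:**
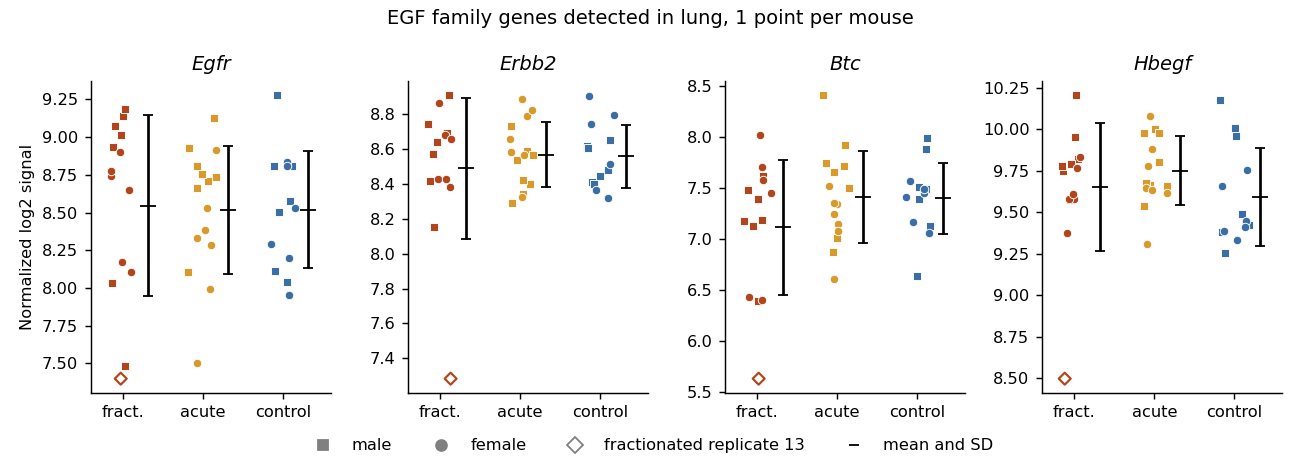
Normalized log2 signal of Egfr, Erbb2, Btc and Hbegf in each mouse by group (fractionated, acute, control). Squares are males, circles females and the open diamond fractionated replicate 13, and the bars give the mean and SD of all lungs of a group. The groups overlap for each gene, and replicate 13 lies lowest in all 4, between 5.63 for Btc and 8.50 for Hbegf.

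Fractionated replicate 13 had the lowest normalized signal of all 42 lungs for each of the 4 genes, read from their brightest probes. In deposited signal, before normalization, it was lowest for Erbb2 only. There Egfr had 246 units against 226 in fractionated replicate 4, Btc 133 against 124 in fractionated replicate 11, and Hbegf 434 against 415 in control replicate 2. With a dimmer Egfr probe this lung ranked 3 from the lowest in normalized signal. Relative to the median of the other lungs on the log2 scale, Egfr lay at -1.26, Erbb2 at -1.29, Btc at -1.78 and Hbegf at -1.17. Receptors and ligands were thus low together, in a lung in which 27.8% of all probes tested lay below the other lungs. Without this lung the differences between fractionated and control lungs were 0.11 for Egfr, 0.02 for Erbb2, -0.17 for Btc and 0.15 for Hbegf, and again none was called.

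**Figure D3:**
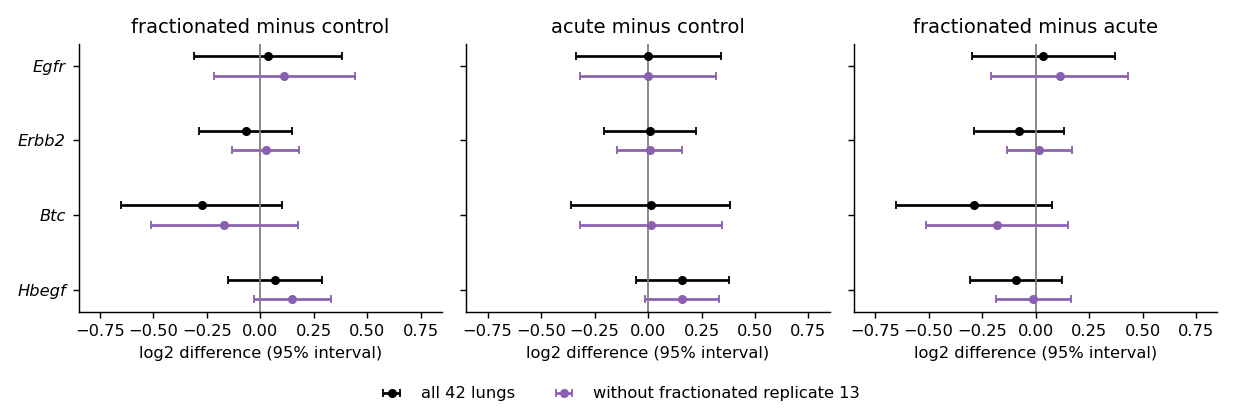
Differences of log2 signal between groups for the 4 tested genes, with 95% intervals, from all 42 lungs (black) and without fractionated replicate 13 (purple). All intervals cross 0, and those of Btc and Egfr are wider than those of Erbb2 and Hbegf.

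Differences between individual mice were wider for Egfr and Btc than for the other genes. After slide, sex and group were accounted for in 41 lungs, the residual SD was 0.41 for Egfr and 0.43 for Btc, against 0.18 for Erbb2, 0.22 for Hbegf and a median of 0.24 over all probes tested. Slide accounted for 23.1% to 25.9% of the variance of these 4 genes, below the median of 34.2% over all probes. Group accounted for 8.32% of the variance of Hbegf, 3.72% of that of Btc and under 1% of that of Egfr and Erbb2, where the median probe had 2.08%.

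Males had higher mean signals than females for Egfr, Hbegf and Btc, but none passed the test over all probes. Between males and females limma called 0 of the 4 genes, where 1.77% of all probes were called and 16.8% had a raw p below 0.05. The median Egfr signal was 8.78 in 22 males and 8.36 in 20 females, a difference of 0.31 ± 0.14 (0.03 to 0.59, adjusted p = 0.234 in limma), and males were higher on 5 of 7 slides without replicate 13. It was 0.26 ± 0.13 without that lung (-0.01 to 0.52). The median Hbegf signal was 9.78 in males and 9.61 in females, a difference of 0.21 ± 0.09 (0.03 to 0.38, adjusted p = 0.211 in limma), with males higher on 4 of 7 slides, and 0.15 ± 0.07 without that lung. The other 3 tested Egfr probes were also higher in males, by 0.13, 0.34 and 0.38. Btc lay at 0.23 ± 0.15, and at 0.16 ± 0.14 without replicate 13, with males higher on 6 of 7 slides. Erbb2 lay at -0.02 ± 0.09, and at -0.09 ± 0.06 without that lung, with males higher on 3 of 7 slides. Cell type markers also lay apart by sex over all 42 lungs, where 48.7% of all probes tested were higher in males. Alveolar type 1 genes lay higher in males in 8 of 8 (1 called), endothelial genes in 7 of 7 and heart muscle genes in 7 of 7 (none called). Markers of the same cell type are not independent of each other, so these tallies are a description. The females in these tallies include replicate 13, which had low scores on each of these lists. Their part in the differences of Egfr and the other genes was not tested. Neither interaction of sex with irradiation was called for any of the 4 genes, where 0% of all probes were called and 2.57% (fractionated) and 2.06% (acute) had a raw p below 0.05.

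Other genes of the pathway were read from 5 lists with 53 tested genes in all, none of which was called between fractionated and control, acute and control, or fractionated and acute lungs. Over all probes tested, 48.8% lay above 0 in fractionated against control lungs, with a median of 0.00, 53.3% in acute against control lungs, with a median of 0.01, and 45.4% in fractionated against acute lungs, with a median of -0.01. Among the other receptors and ligands 3 of 6 listed genes were tested. Erbb4, the remaining receptor of the family, and the neuregulin gene Nrg3 were detected on 0 arrays. The neuregulin genes Nrg4 and Nrg1 lay at -0.19 ± 0.16 and 0.17 ± 0.16 in fractionated against control lungs, and Epgn, the gene of epigen, at -0.28 ± 0.32.

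The genes of ligand shedding had 8 of 11 tested, 5 above and 3 below 0 in fractionated against control lungs, with a median of 0.04. Among them Adam15, a membrane metalloprotease, lay at 0.09 ± 0.09, and at 0.15 ± 0.07 without replicate 13 (raw p = 0.0336, adjusted p = 1 in limma). Rhbdf1, a regulator of ADAM17, lay at -0.11 ± 0.11, and at -0.01 ± 0.08 without that lung. Adam17 itself, the main sheddase of these ligands, lay at 0.07 ± 0.09 in fractionated against acute lungs. Adaptors and effectors had 13 of 18 tested, 4 above and 9 below 0 with a median of -0.05. Stat5a, a transcription factor activated downstream of growth factor and cytokine receptors, had the smallest p of that list at 0.34 ± 0.16 (raw p = 0.0378, adjusted p = 0.934 in limma). Without replicate 13 it lay at 0.18 ± 0.09 (raw p = 0.0563). Attenuators and endocytosis had 15 of 17 tested, 6 above and 9 below 0 with a median of -0.05, among them Lrig1, an inhibitor of the receptors, at 0.16 ± 0.11 (0.07 ± 0.09 without replicate 13), Cblb, a ubiquitin ligase, at 0.19 ± 0.15, and Usp8, a deubiquitinase of receptors, at -0.25 ± 0.16. Without replicate 13 the tallies above and below 0 were 6 and 2 for shedding (median 0.03), 6 and 7 for adaptors and effectors (-0.01) and 9 and 6 for attenuators and endocytosis (0.00), so that the last list had more members above than below 0.

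The genes known as targets of ERK signalling had 14 of 18 tested. All 14 lay below 0 in fractionated against control lungs, with a median of -0.13. Without replicate 13, 13 of 14 lay below 0 with a median of -0.12. In fractionated against acute lungs 13 of 14 lay below 0 with a median of -0.13, and 12 of 14 with a median of -0.08 without replicate 13. Those comparisons share the fractionated lungs. In acute against control lungs 9 of 14 lay below 0, with a median of -0.03. None of these genes was called or had a raw p below 0.05 in these comparisons. In fractionated against control lungs Egr1, an immediate early transcription factor, lay at -0.32 ± 0.20, Dusp6, the phosphatase that inactivates ERK, at -0.11 ± 0.08, and Spred1, an inhibitor of RAS signalling, at -0.17 ± 0.12. Without replicate 13 they lay at -0.22 ± 0.19, -0.07 ± 0.07 and -0.09 ± 0.10 in the same order. Genes of this list are known to be induced together, so the count does not stand for 14 independent genes. The list was also chosen with earlier results of these data known, so its tallies are a description and not a test.

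One feedback inhibitor of EGFR differed between the sexes once the lung that stood apart was left out. Errfi1, whose product binds and inhibits the EGFR kinase, had log2 signals of 11.90, 12.51 and 13.42 (lowest, median and highest) in 22 males and of 12.58, 12.89 and 13.21 in the 19 females other than replicate 13. Of the 22 males, 20 lay below the median of those females and 16 below the lowest, though the highest value was that of a male, and replicate 13 itself had 11.53. The difference was -0.41 ± 0.09 without replicate 13 (-0.58 to -0.24, adjusted p = 0.00416 in limma), where 2.23% of all probes were called. With all 42 lungs it was -0.34 ± 0.10 and did not pass (adjusted p = 0.0730). Over 9 settings the adjusted p in limma ranged from 0.00147 to 0.389. The difference passed only in settings that left replicate 13 out or gave its array a low weight (0.085). In every setting that kept that lung at full weight it did not pass (adjusted p of 0.0648 or more in limma). Errfi1 was lower in males on 7 of 7 slides (-0.67 to -0.08), and its median was lower in males within the fractionated lungs (12.51 in males and 12.88 in females), the acute lungs (12.34 and 12.88) and the control lungs (12.57 and 12.91). Of the 15 tested genes of its list it was the only one called between males and females, and none of the other 4 lists held a called gene. Without replicate 13 this is 1 call over all the pathway genes tested, no higher a share than the 2.23% called over all probes. The call therefore describes Errfi1 alone and does not set the pathway genes apart from other genes. Marker scores also had different medians in the sexes over all 42 lungs, which was not tested. They lay lower in males for alveolar type 2 cells (median -0.12 in males and 0.11 in females), macrophages (-0.18 and 0.21), T and NK cells (-0.17 and 0.22) and cell cycle genes (-0.15 and 0.33). They lay higher in males for heart muscle (0.59 and -0.46), mesothelium (0.13 and -0.38), red cells (0.10 and -0.37), smooth muscle (0.09 and -0.20), endothelium (0.11 and -0.22) and alveolar type 1 cells (0.05 and -0.10). Single genes were called in the mesothelial and alveolar type 1 lists (1 each), and without replicate 13 in the T and NK list (1). The part of these cell types in the difference was not tested.

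Since whole lung mixes cell types, each of the 4 genes was set against scores of 16 marker lists over the 41 lungs other than replicate 13. Gene and score were both taken as deviations left after slide, sex and group were accounted for. Correlations within single slides, here and below, instead used log2 values not adjusted for sex or group, over the 5 or 6 lungs of a slide. They can therefore hold differences of sex or group. In bulk tissue, fewer cells of a type and less RNA per cell cannot be told apart. Of 64 pairs of gene and list, 19 passed a two-sided permutation test with 100000 draws at an adjusted p under 0.05, 9 for Egfr, 4 for Erbb2, 4 for Btc and 2 for Hbegf. The correlations were computed in 6 ways: as Pearson r, as Spearman rho, without adjustment for slide, over all 42 lungs, without the 2 lungs farthest from the median of the gene, and with arrays scaled to a common median. Of the 19 pairs, 8 passed in all 6 ways, 6 for Egfr, 1 for Erbb2, 1 for Btc and 0 for Hbegf.

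Egfr varied with the markers of alveolar type 1 cells, which form the gas exchange surface, and of endothelium. With the alveolar type 1 score its Pearson r was 0.850 and its Spearman rho 0.851 (permutation p = 1e-05 for each, the smallest the draws can give, adjusted p = 0.000128 and 0.000213). Without the 2 lungs whose Egfr lay farthest from the median r was 0.777. Within single slides, on the values not adjusted for sex or group, r was positive on 7 of 7 (0.720 to 0.953). With the endothelial score r was 0.865 and rho 0.838 (permutation p = 1e-05 for each), 0.775 without those 2 lungs, and positive on 7 of 7 slides (0.485 to 0.953). Lists of smooth muscle (r = 0.787), mesothelium (r = 0.722) and fibroblasts (r = 0.640) also varied with Egfr, and the macrophage score varied against it (r = -0.759, rho = -0.757, permutation p = 1e-05 for each, 7 of 7 slides). The alveolar type 2 score ran against Egfr at r = -0.585 (adjusted p = 0.00384), but at -0.331 (adjusted p = 0.220) when arrays were scaled to a common median. The cell cycle score ran against it at r = -0.635 (-0.402 with that scaling, which did not pass). The heart muscle score ran with it at r = 0.486 (adjusted p = 0.0245), and at 0.372 without the 2 farthest lungs, which did not pass. Over all 42 lungs Egfr had r = 0.846 with the alveolar type 1 score and 0.882 with the endothelial score.

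These relations were shared by other genes. Of the probes tested outside each list, 1.86% had an r with the alveolar type 1 score at least as high as that of Egfr, and 1.97% with the endothelial score. Probes as strongly negative were not counted. The first axis of variation among the 41 lungs held 31.9% of the residual variance. The alveolar type 1 score had an absolute correlation of 0.951 with that axis, the endothelial score 0.959, the macrophage score 0.943, the smooth muscle score 0.901, the alveolar type 2 score 0.835, Egfr 0.833, Erbb2 0.491, Btc 0.424 and Hbegf 0.321, against a median of 0.377 over all probes. The mesothelium score had 0.736 with that axis, the fibroblast score 0.67, the cell cycle score 0.655 and the heart muscle score 0.479. Each of the remaining list scores lay below the median of all probes. The results for the lists above that median, those with Erbb2 and Btc included, are therefore not separate observations.

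Erbb2 and Btc varied with the markers of alveolar type 2 cells, which make surfactant. For Erbb2 r was 0.582 and rho 0.532 (permutation p = 0.00063 and 0.00203, adjusted p = 0.00384 and 0.0108), with r = 0.508 without the 2 lungs farthest from its median, and the correlation was positive on 6 of 7 slides (-0.054 to 0.938). For Btc r was 0.612 and rho 0.570 (permutation p = 0.00032 and 0.00089, adjusted p = 0.00256 and 0.00570), with r = 0.488 without the 2 farthest lungs, and it was positive on 7 of 7 slides (0.204 to 0.801). Such correlations were common: of the probes outside the list, 10.9% had an r with the alveolar type 2 score at least as high as that of Erbb2, and 9.67% at least as high as that of Btc. Over all 42 lungs the correlations were 0.664 for Erbb2 and 0.676 for Btc. Both genes also ran against the T and NK cell score, at r = -0.478 for Erbb2 and -0.516 for Btc, but at -0.090 and -0.096 when arrays were scaled to a common median. Erbb2 further passed with the endothelial score (r = -0.468) and the cell cycle score (r = 0.441), and both signs turned over all 42 lungs, to 0.222 and -0.428. Btc further passed with the fibroblast score (r = -0.519) and the smooth muscle score (r = -0.487), neither of which passed without the 2 farthest lungs (-0.284 and -0.365).

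Hbegf had the weakest ties to these lists. It ran against the ciliated cell score (r = -0.575, rho = -0.572, permutation p = 0.00066 and 0.00086, adjusted p = 0.00384 and 0.00570), with the same sign on 4 of 7 slides. That correlation was 0.159 with all 42 lungs and -0.195 when arrays were scaled to a common median, neither of which passed. The adipose score was the other one that passed (r = -0.442, adjusted p = 0.0444), and it passed in 2 of the 6 ways.

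**Figure D4:**
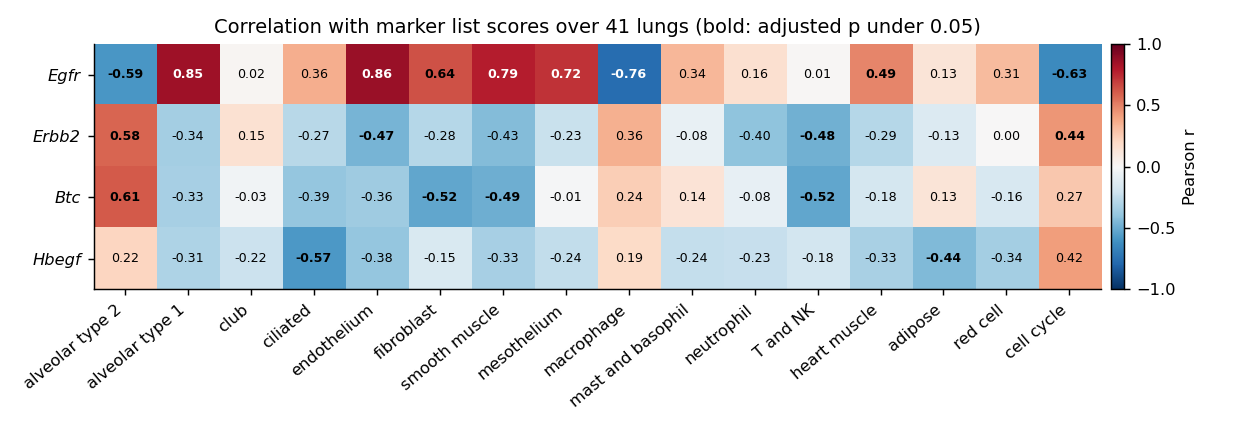
Pearson correlation of each tested gene (rows) with the scores of 16 marker lists (columns) over 41 lungs, red for positive and blue for negative, with values in bold where the adjusted permutation p is under 0.05. Egfr is positive with alveolar type 1 (0.85) and endothelial lists (0.86) and negative with macrophage (-0.76) and alveolar type 2 lists (-0.59), while Erbb2 and Btc are positive with the alveolar type 2 list (0.58 and 0.61).

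**Figure D5:**
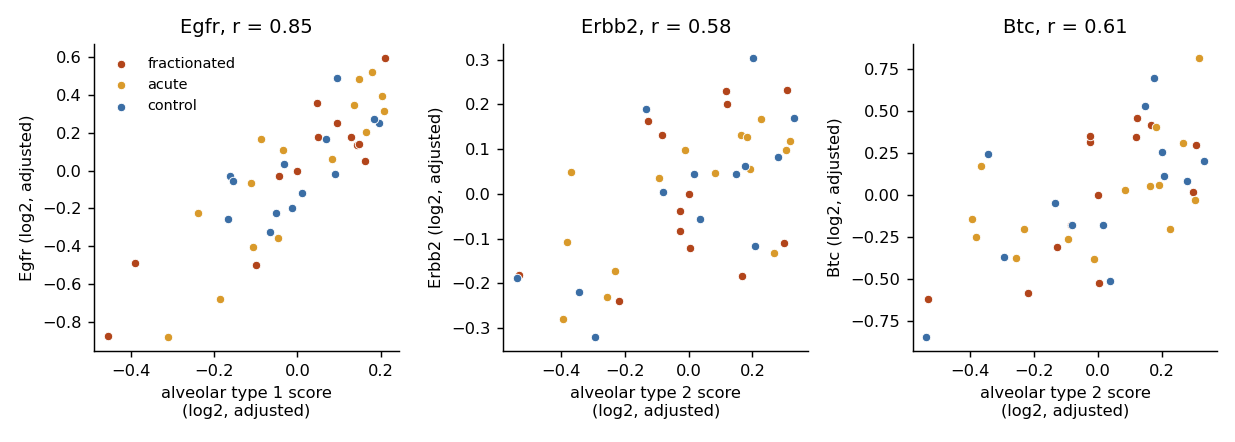
Each point is 1 of 41 lungs, coloured by group (fractionated, acute, control), with the adjusted log2 deviation of a marker list score on the horizontal axis and that of a gene on the vertical axis. Egfr runs with the alveolar type 1 score (r = 0.85), and Erbb2 (r = 0.58) and Btc (r = 0.61) run with the alveolar type 2 score with more scatter. Group differences were removed from both axes beforehand, so the mixing of the groups in the plot says nothing about irradiation.

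No pair of the 4 genes varied together beyond the test over 41 lungs. Of the 6 pairs, Erbb2 and Btc had the strongest correlation, at r = 0.422 and rho = 0.395 (permutation p = 0.0180 and 0.0270, adjusted p = 0.108 and 0.162), with r = 0.391 without the 2 lungs farthest from the median of Erbb2. The correlation was positive on 7 of 7 slides (0.232 to 0.483). Egfr ran against Hbegf at r = -0.358 and against Erbb2 at r = -0.331 (adjusted p = 0.137 for each), and against Btc at r = -0.254 (adjusted p = 0.202). Hbegf had r = 0.276 with Btc and 0.209 with Erbb2.

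Among 15266 probes with 1 gene symbol, those whose deviations were most like Egfr over the 41 lungs were Ehd4 (r = 0.911), an endocytic protein, Plpp1 (r = 0.903), a lipid phosphatase, and Hilpda (r = 0.902), a lipid droplet protein. For Erbb2 they were Galnt10 (r = 0.741), an enzyme of mucin-type glycosylation, Dnase2a (r = 0.738), a lysosomal nuclease, and Dpp9 (r = 0.730), a dipeptidyl peptidase. For Btc they were Wsb2 (r = 0.802), Ppa2 (r = 0.778), the mitochondrial pyrophosphatase, and Larp4b (r = 0.768), an RNA-binding protein. For Hbegf they were Nudt21 (r = 0.704), an mRNA cleavage factor, Mettl1 (r = 0.697), a tRNA methyltransferase, and Eif4a1 (r = 0.680), a translation initiation helicase. The 99th percentile of r over the probes searched was 0.808 for Egfr, 0.622 for Erbb2, 0.640 for Btc and 0.508 for Hbegf. These names are a description of the highest values and were not tested.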

How the data were processed

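RNA of 42 left lungs was measured on Illumina arrays with 1 array per mouse, so the mouse was the replicate. Groups, sex and slide came from the labels, which state neither litters nor cages. The deposited non-normalized table holds, per the file headers, linear mean signal intensity for each probe in each lung, with a detection p-value. The value table the authors deposited holds log2 values (median 3.96 in each of its 41 filled columns, 1.91 to 15.37) of unstated background step. Its column for fractionated replicate 13 is empty (1 empty column), so the signals were used throughout and the value table only as an alternative, in which that lung is missing. The scanner software is not stated there.

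Signals were background corrected with neqc in limma 3.58.1 (R 4.3.3), which inferred the background from the detection p-values, added an offset of 16 and applied quantile normalization and log2. Of 45281 probes, 17927 with a detection p under 0.01 on 13 or more arrays (as many as the smallest group has) were tested. Of all probes 34885 had 1 gene symbol in the platform annotation, 18 had several and 10378 were unnamed; 34843 matched the RefSeq gene table of GRCm38.p6. A gene was read from its probe of highest mean signal. Differences were fitted with lmFit and eBayes (trend) with group and sex over all arrays, two-sided, with Benjamini-Hochberg adjustment over all probes tested, called at an adjusted p under 0.05. Simulated data took each probe's own mean and spread with independent noise, without a slide pattern or a lung that stood apart. There the fit recovered 61% of 100 probes shifted by 0.5 and 97% of 100 shifted by 1 between fractionated and control lungs (17927 probes). These shares are averages over probes drawn at random. Egfr and Btc varied more between mice than the median probe (residual SD 0.41 and 0.43 against 0.24), and no share was computed for them. A single changed gene was not simulated. The median 95% interval of a probe reached 0.255, 0.250 and 0.246 to either side in the fractionated against control, acute against control and fractionated against acute comparisons. The number of arrays limits this precision.

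Correlations (Python 3.11.15, NumPy 2.4.6, SciPy 1.17.1) used residuals of slide, sex and group, without fractionated replicate 13. Those within single slides used the normalized log2 values without adjustment for sex or group. In each of 100000 draws the permuted residuals were adjusted again for the same terms. The lung alone on slide 8 has a residual of 0 by construction. A list score is the mean deviation of its tested genes, for lists with at least 3 tested. Slide as a block, other scalings, no filter, array weights and leaving out replicate 13 were tried as alternatives. Median scaling of the correlations was chosen after the data were seen. The text names all 9 members, up to 3 genes of smallest p per pathway list and comparison, and the 3 genes most like each member; Erbb4, Nrg3 and the comparison of Errfi1 by group were added after the values were seen. The members and lists were chosen with earlier results of these data known.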

Additional observations from a re-analysis of the deposited data

How the results depend on the processing

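No alternative called Egfr, Erbb2, Btc or Hbegf between groups or sexes, and limma called 0 probes between fractionated, acute and control lungs, in the F test and in the sex interactions under each setting run. The count between males and females, 318, was 76 with median scaling, 186 without the filter, 538 with slide as a block, 868 with slide as a block without fractionated replicate 13 and 1165 with array weights. Median scaling moved the median of all probes to 0.11 in acute against control lungs, where Egfr lay at 0.10, Erbb2 at 0.11, Btc at 0.10 and Hbegf at 0.28, all with adjusted p of 0.900 or more.

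Several differences changed sign without a call, and the cause was not tested. For Egfr, fractionated against control was -0.0032 with slide as a block and -0.25 ± 0.17 and -0.13 ± 0.18 with its 2 dimmer probes. Those 2 probes were designed on another reference transcript than the brightest probe. Acute against control was -0.00068 with the authors' value table, -0.00015 without fractionated 13, -0.0015 without the sex term, and -0.021, -0.20 and -0.10 with the other 3 probes. Fractionated against acute was -0.052 with median scaling, -0.0034 with slide as a block, and -0.042 and -0.026 with the dimmer probes. Its sex interaction with fractionated irradiation was -0.019 without fractionated 13, and with the dimmest tested probe the interactions were -0.21 (fractionated) and -0.22 (acute). For Erbb2, fractionated against control was 0.024 with the value table, 0.024 without fractionated 13, 0.011 with slide as a block besides, and 0.020 with array weights, and fractionated against acute was 0.015, 0.016, 0.0094 and 0.0056 under the same settings. Erbb2 in acute against control was -0.00025 with slide as a block. Btc in acute against control was -0.049 with slide as a block, -0.047 without fractionated 13 besides and -0.078 with array weights, and its interaction of sex with fractionated irradiation was -0.14 without that lung.

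Of the 6 pairs of genes, 0 passed over 41 lungs, 1 without adjustment for slide (Erbb2 and Btc, adjusted p = 0.0346), 3 over all 42 lungs and 3 with median scaling, an alternative chosen after the data were seen. With all 42 lungs Egfr and Erbb2 had r = 0.125 and Egfr and Hbegf r = 0.0928, and with median scaling Egfr and Btc had r = 0.0208. Of the 19 pairs of gene and list, 12 passed without the 2 farthest lungs, out of 12 that passed in all. Over all 64 pairs the sign turned for 28 with all 42 lungs, 10 with median scaling, 7 without the 2 farthest lungs and 3 without adjustment for slide. Of the 19, 3 turned with all 42 lungs: Erbb2 had r = 0.222 with endothelium and -0.428 with cell cycle, and Hbegf had r = 0.159 with ciliated cells. The difference of Errfi1 between males and females ranged from -0.42 to -0.32 over 9 settings, with adjusted p from 0.00147 to 0.389. It passed only in settings in which fractionated replicate 13 was left out, missing or given a low array weight. No paired analysis was possible because the labels give no replicate numbers that pair mice across groups. Slide as a block, with sex as a term, and the differences within slides compare mice that share a slide.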
